A study of Homo sapiens with 6 samples.

Results

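Replication-dependent histone genes supply the core and linker histones that package newly made DNA. They lie in clusters, most have no intron, and their mRNAs end in a conserved stem-loop in place of a poly(A) tail. The stem-loop is bound by SLBP, and the end is cut by a machinery that holds the U7 small nuclear ribonucleoprotein. These mRNAs build up in S phase, when DNA is copied, and decay as it ends. Some of these genes also give transcripts that read past the stem-loop and carry a poly(A) tail.

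The genes described here are those whose symbol is H1-1 to H1-6, or starts with H2AC, H2BC, H3C or H4C followed by a number, older HIST1, HIST2 and HIST3 names included. Of 62492 genes listed, 66 were members: 6 H1, 17 H2A, 16 H2B, 13 H3 and 14 H4 genes. By GRCh37 coordinates, 52 lie on chromosome 6, 13 on chromosome 1 and 1 on chromosome 12. The 3 symbols H2BC7, H2BC8 and H4C6 are not analysed here.

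RNA was sequenced from HCT116 cells, a human colorectal carcinoma line of wild type genotype in the labels. The cells received a control siRNA (siControl) or an siRNA against NONO (siNONO), each at 20 nM with a lipid reagent, and each group has 3 libraries numbered Set 1 to Set 3. NONO is an RNA-binding protein of paraspeckles, and the study asked how its loss changes the transcriptome. The libraries were made with a stranded mRNA kit from poly(A) RNA, so they hold mRNAs with a tail and whatever else that selection carries along. Nothing in the labels says whether the Sets are separate cultures, so p-values measure the spread between these libraries, with differences between Sets taken out.

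Total estimated counts ran from 21765393 to 32659002 per library. NONO was at 496, 495 and 516 CPM (counts scaled to the TMM library size) in the siControl libraries and at 89.5, 95.4 and 100 CPM in the siNONO libraries. It fell by 2.40 on the log2 scale (SE 0.0337, adjusted p = 2.47e-13), to 18.9% of siControl. Of 7 epithelial markers 6 were tested, and KRT8 (1251 TPM) and EPCAM (236 TPM, a level scaled for gene length) were abundant in siControl. PTPRC and CD3E, markers of blood cells, had 1 count each over the 6 libraries. Across all genes, 7924 of 17000 tested had an adjusted p no higher than 0.05 and are referred to as called, which is 46.6%. By direction, 23.2% were called higher and 23.4% lower in siNONO, so that 49.7% of the calls were higher. On log2(TPM + 1) with limma 31.3% of the calls were higher, 1643 against 3614.

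All 66 members carry the stem-loop letters within 150 bases after the stop codon in the GRCh37 sequence. The search was for a stem of 6 base pairs that starts with GG and ends with CC, G-U pairs allowed, around a loop of 4 bases of any letters. The same search matched 339 of 19699 other protein-coding genes, or 1.72%. In the members 22 to 67 bases lay between the stop codon and the stem. The sequences below are shown because they are the ending that sets these mRNAs apart. Each is a 26-base window read 5′ to 3′ on the gene's strand, with the paired stem bases in capitals. H2BC5 and H2BC4 are the members called in the comparison, H2BC12 and H1-2 are well detected members with no model past this point, H4C14 has the H4 form of the stem, and H2AC11 and H2AC15 each have a G-U pair:
H2BC5 (chr6:26158810-26158835, plus strand): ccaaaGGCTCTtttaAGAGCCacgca
H2BC4 (chr6:26123695-26123720, minus strand): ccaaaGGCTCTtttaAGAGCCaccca
H2BC12 (chr6:27114140-27114165, minus strand): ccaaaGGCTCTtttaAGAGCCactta
H1-2 (chr6:26055967-26055992, minus strand): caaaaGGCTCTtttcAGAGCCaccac
H4C14 (chr1:149804591-149804616, plus strand): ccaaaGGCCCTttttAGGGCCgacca
H2AC11 (chr6:27101289-27101314, plus strand): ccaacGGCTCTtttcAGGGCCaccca
H2AC15 (chr6:27805658-27805683, minus strand): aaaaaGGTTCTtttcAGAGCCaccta

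The stem differed by class and hardly within it. All 14 H4 genes had GGCCCT paired with AGGGCC, and 50 of the 52 genes of the other classes had GGCTCT paired with AGAGCC, the exceptions being H2AC11 and H2AC15. The loop was tttc in 50 members, ttta in 8, tttt in 5, tctc in 2 and tcta in 1. H2BC5 and H2BC4, which moved in opposite directions below, have the same stem and loop, and 92.6% identical coding bases.

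Most members had few reads in these libraries. Of the 66, 14 were at 0 in every library, 35 had some reads but too few to be tested, and 17 passed the filter on low counts. A count of 0 allows a level of up to 0.0919 to 0.138 CPM per library (3 counts, counting error alone). The members at 0 included H1-1, H1-3 and H1-5, the testis gene pair H2AC1 and H2BC1, and H3C7, H3C8, H3C11 and H4C7. Those tested were 1 H1, 4 H2A, 7 H2B, 2 H3 and 3 H4 genes, with 7 of the 13 chromosome 1 members and 10 of the 52 chromosome 6 members among them. Summed over libraries, the members not tested reached at most 61.3 estimated counts, for H2AC20, and the lowest of those tested had 68, for H2BC26. The members tested held 93.0% of all member reads.

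Reads were more numerous for members whose model was counted as running past the stem-loop. That was done where the length in the files or a listed transcript went over 100 bases beyond. For H2AC11, H2BC9, H3C8, H3C14, H3C15, H4C5 and H4C9 only the length in the files did so. Whether their added length lies past the stem-loop was not checked. The 24 members counted as running past it had a median of 87.5 estimated counts over the 6 libraries, and 2 of them were at 0. The 42 members whose models end at the stem-loop had a median of 4.0, and 12 were at 0. Among the tested members, 14 had a model counted as past the stem-loop and 3 did not (H1-2, H2BC12 and H4C12). These sums are not per length, and a longer model also gives more sequence for reads to fall on. Where the reads fall within a gene is not analysed here.

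**Figure D1:**
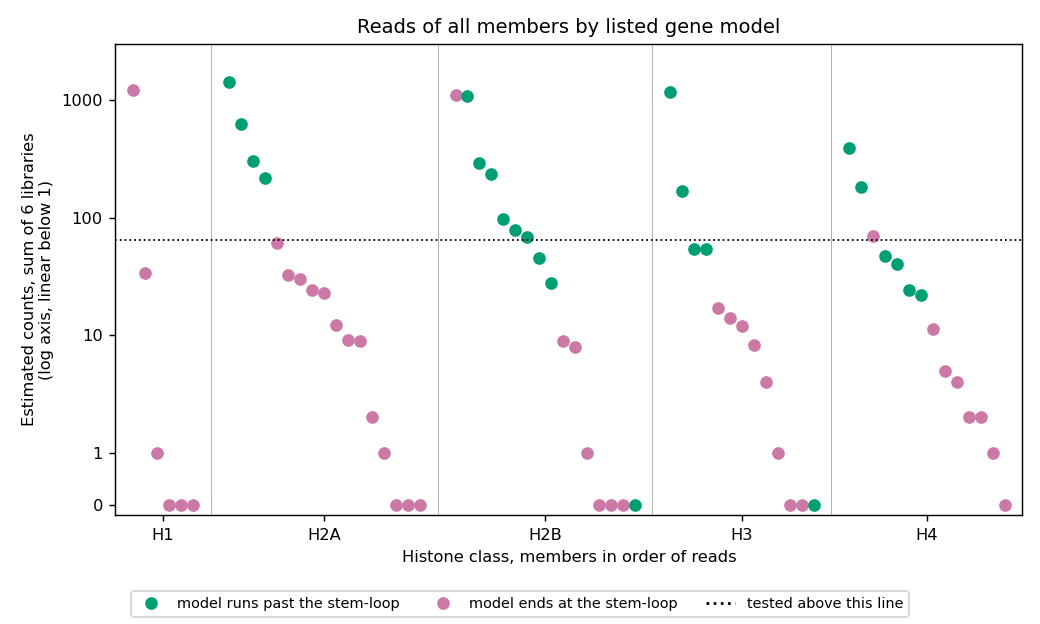
Estimated counts summed over the 6 libraries (vertical log axis, linear below 1) for each of the 66 members, in order of reads within each histone class. Green points are genes whose model was counted as running past the stem-loop, by length or by a listed transcript. Pink points end there, and the dotted line parts the 17 members tested from the 49 not tested. H1-2 and H2BC12 are the pink points above 1000, and 14 points lie at 0.

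All members together made up 0.00514% to 0.00573% of the counts of siControl libraries and 0.00541% to 0.00599% of siNONO libraries. Per length, H2BC12 had the highest level in siControl at 29.6 ± 3.06 TPM (SD, n = 3), followed by H1-2 at 19.4 ± 2.82, H2BC5 at 13.7 ± 0.797, H2AC6 at 8.23 ± 0.521, H2AC25 at 7.32 ± 0.598 and H3C6 at 4.11 ± 0.485. The SDs of H2AC6 and H2AC25 overlap, while those of the other neighbours named do not. As a comparison on the same scale, the replication-independent H3-3B was at 968 TPM and H2AZ1 at 755 TPM. The part of the poly(A) selection in this gap cannot be told apart here from the amount of mRNA in the cells.

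Other RNAs without a poly(A) tail were looked at beside them. Of 17 such RNAs in the list 11 were matched, and 3 were tested. U7, U4, U5 and minor spliceosomal RNA genes (RNU7-1, RNU4-1, RNU4-2, RNU5A-1, RNU4ATAC and RNU6ATAC) and VTRNA1-1 were at 0 in every library. The signal recognition particle RNA RN7SL2 was at 436 TPM in siControl and fell by 0.29 on the log2 scale (SE 0.0578, adjusted p = 0.00114). RN7SK, which holds back a transcription elongation kinase, was at 8.58 TPM and had a log2 fold change of 0.01 (SE 0.308, adjusted p = 0.986). SNORD3A, the U3 small nucleolar RNA, had 10.0, 8 and 9.47 estimated counts in siControl and 14.9, 7.93 and 30.1 in siNONO. The groups overlapped, and its log2 fold change was 0.80 (SE 0.407, adjusted p = 0.128). For these RNAs loss with the poly(A) selection and loss by length cannot be told apart.

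Between siNONO and siControl, H2BC5 rose and H2BC4 fell, and the other 15 of the 17 tested members did not pass the test. Thus 2 of 17 were called (11.8%), 1 in each direction and the same 2 at an unadjusted p under 0.05, against 46.6% of all genes tested. The members are weakly expressed, and weak genes were called less often: 11.8% of the genes with an average log2 CPM under 1, 31% from 1 to under 3 and 62% at 3 or more. The members called in those ranges were 1 of 10, 1 of 6 and 0 of 1. The members' median log2 fold change was 0.09, against -0.005 over all genes tested, with 12 values above 0 and 5 below. The groups did not overlap for 3 members (H2AC25, H2BC4 and H2BC5), against 47.8% of all genes tested. In RNA from whole cultures, fewer cells in a state and less RNA per cell cannot be told apart.

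**Figure D2:**
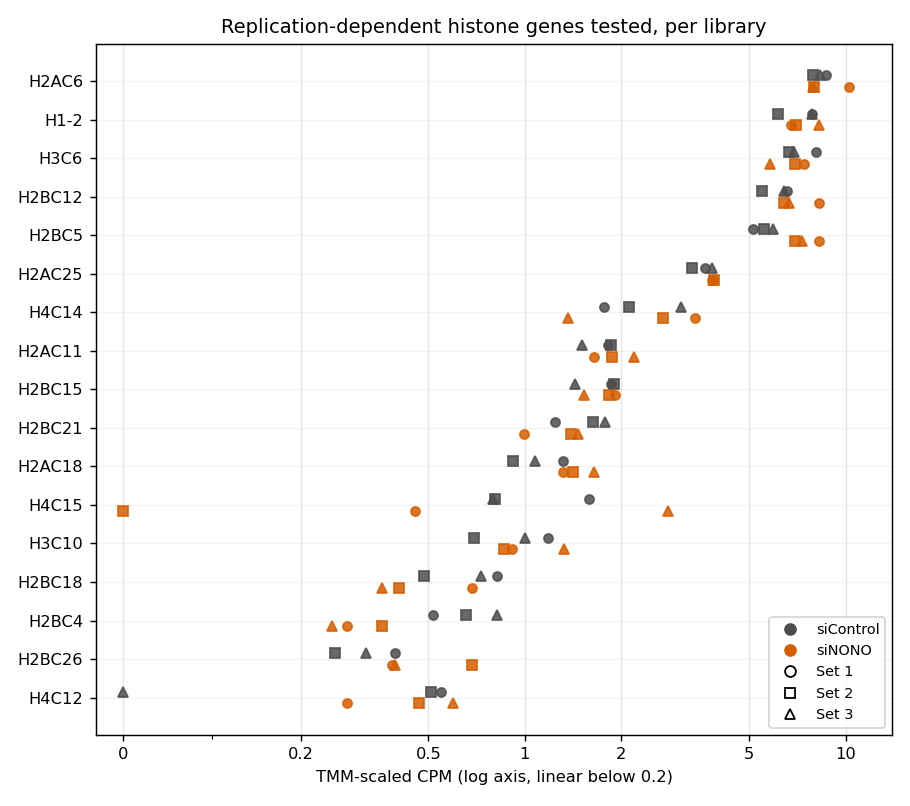
TMM-scaled CPM (horizontal log axis, linear below 0.2) of the 17 tested members in each library, siControl in grey and siNONO in orange, with the Set given by the marker. The groups are apart for H2BC5 (5.13 to 5.92 against 6.94 to 8.28 CPM) and for H2BC4 (0.516 to 0.82 against 0.25 to 0.359 CPM), and mixed for most others.

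H2BC5 encodes an H2B and lies at chr6:26158350-26171577 on the plus strand, a span that includes listed transcripts past the stem-loop. It was at 5.13, 5.55 and 5.92 CPM in siControl Sets 1 to 3 and at 8.28, 6.94 and 7.30 CPM in siNONO. Every siNONO library was above every siControl library. It rose by 0.45 on the log2 scale (SE 0.113, 95% interval 0.20 to 0.69, adjusted p = 0.00602), or 1.36-fold. The estimated counts behind this were 130 to 169 in siControl and 193 to 237 in siNONO. Set 1 had the largest ratio, and without the siControl or the siNONO library of Set 1 the call was lost, at a log2 fold change of 0.32 (adjusted p = 0.0867) and 0.31 (adjusted p = 0.105). DESeq2 gave 0.44 and an adjusted p of 0.114.

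The 250 bases before the annotated start of H2BC5 are shown because it is the member that rose. The window was searched on both strands for the octamer ATTTGCAT, bound by POU2F1, for the CCAAT box and for TATAAA, and matches are in capitals:
H2BC5 (chr6:26158100-26158349, GRCh37, plus strand): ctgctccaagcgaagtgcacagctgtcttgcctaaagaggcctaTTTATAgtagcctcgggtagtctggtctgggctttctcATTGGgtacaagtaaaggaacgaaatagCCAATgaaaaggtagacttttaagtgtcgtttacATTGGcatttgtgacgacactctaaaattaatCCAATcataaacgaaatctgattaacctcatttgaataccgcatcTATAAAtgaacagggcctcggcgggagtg
The window held 4 CCAAT and 2 TATAAA matches and no exact octamer. These are matches of letters and say nothing of binding.

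H2BC4 encodes another H2B and lies at chr6:26086545-26124154 on the minus strand. It was at 0.516, 0.657 and 0.82 CPM in siControl and at 0.28, 0.359 and 0.25 CPM in siNONO. The groups did not overlap, and the reads were few: 17, 18 and 18 estimated counts against 8, 10 and 7. It fell by 1.13 on the log2 scale (SE 0.390, 95% interval -1.98 to -0.28, adjusted p = 0.0306). Leaving out any 1 library lost the call, with log2 fold changes from -1.28 to -0.86 and adjusted p from 0.0665 to 0.159. Each such fit rests on the Sets left whole and has less power. Its listed exons overlap HFE and a gene without a symbol, both on the opposite strand. The counting's strand setting is not given in the sources used here.

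H2BC4 shares its start region with H2AC6, which did not move with it. H2AC6 was at 8.71, 7.92 and 8.34 CPM in siControl and at 10.2, 7.98 and 7.90 CPM in siNONO. The groups overlapped, with only Set 1 of siNONO above the siControl libraries, and the log2 fold change was 0.07 (SE 0.0945, 95% interval -0.14 to 0.27, adjusted p = 0.607). The listed exons of H2AC6 overlap the same gene without a symbol that H2BC4 overlaps, but on the strand of H2AC6. Any effect of this on the H2AC6 counts was not tested. The difference between the pair was not tested. Their starts are 219 bases apart and they are transcribed away from each other. The stretch between them is shown for that reason, beside that of H2AC12 and H2BC12, whose partners differ most by ratio of reads. Both are on the plus strand of GRCh37, with the H2B gene on the left, and capitals mark the same motifs in either direction:
H2BC4 and H2AC6 (chr6:26124155-26124372): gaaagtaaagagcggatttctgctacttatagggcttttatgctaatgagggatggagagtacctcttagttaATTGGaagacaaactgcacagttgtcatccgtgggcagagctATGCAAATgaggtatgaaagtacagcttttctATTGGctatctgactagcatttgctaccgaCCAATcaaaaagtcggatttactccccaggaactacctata
H2BC12 and H2AC12 (chr6:27114635-27114884): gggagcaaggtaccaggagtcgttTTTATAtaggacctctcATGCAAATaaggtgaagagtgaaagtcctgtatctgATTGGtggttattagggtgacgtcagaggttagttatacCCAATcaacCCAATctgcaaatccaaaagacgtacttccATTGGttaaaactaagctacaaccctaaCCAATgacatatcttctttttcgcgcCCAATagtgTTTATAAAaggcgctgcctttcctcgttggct
The first stretch holds 1 octamer, 3 CCAAT and no TATAAA matches, and the second holds 1, 6 and 3.

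There are 10 such divergent H2A and H2B pairs among the members, with starts 170 to 251 bases apart. All 10 hold CCAAT, 7 the octamer and 7 TATAAA. The pairs without TATAAA between their starts are H2AC6 with H2BC4, H2AC15 with H2BC15, and H2AC25 with H2BC26. Both partners were tested in 2 pairs, 1 partner in 4 and neither in 4. In the pair H2AC12 and H2BC12 the H2A gene had 9 estimated counts over the libraries and the H2B gene 1108, although they share the region between their starts. In RefSeq windows (GRCh38.p14, 250 bases before to 50 after the start), 61 members were matched. The octamer was in 68.8% of the H2A and 75% of the H2B windows, in 9.09% of the H3 windows and in none of the H1 or H4 windows, against 1.8% of all 27305 promoters. CCAAT was in 83.6% of the members' windows against 35.7%, and TATAAA in 67.2% against 12%. H2AC6 and H2BC4 each had a TATAAA match in these windows, unlike in the stretch between their annotated starts.

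Among the other H2B genes, H2BC12 (chr6:27114140-27114634, minus strand) had the highest level per length. It was at 6.56, 5.48 and 6.43 CPM in siControl and at 8.25, 6.44 and 6.65 CPM in siNONO. The groups overlapped, and the log2 fold change was 0.21 (SE 0.105, 95% interval -0.02 to 0.44, adjusted p = 0.120). H2BC15 was at 1.85, 1.90 and 1.44 CPM against 1.91, 1.83 and 1.53, a log2 fold change of 0.02 (SE 0.206, adjusted p = 0.936). H2BC21 was at 1.24, 1.63 and 1.78 CPM against 0.995, 1.39 and 1.47. Each Set was lower in siNONO but the groups overlapped, with a log2 fold change of -0.28 (SE 0.228, adjusted p = 0.346). H2BC26 was at 0.395, 0.256 and 0.319 CPM against 0.385, 0.683 and 0.393, with Set 2 of siNONO standing above the rest (log2 fold change 0.56, SE 0.430, adjusted p = 0.318). H2BC18 had a log2 fold change of -0.47 (adjusted p = 0.304). The row of related name HIST2H2BC had 1659 estimated counts over the libraries against 96.9 for H2BC18. Whether reads are split between these rows was not tested. The listed exons of H2BC18 overlap FCGR1A on the opposite strand, and those of H2BC26 overlap MIR4666A on the same strand.

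Of the H2A genes, 0 of the 4 tested passed in edgeR, also at an unadjusted p under 0.05, or in DESeq2. H2AC25 on chromosome 1 was at 3.64, 3.32 and 3.83 CPM in siControl and at 3.84, 3.88 and 3.86 CPM in siNONO. The groups did not overlap, but by a margin far smaller than the spread in siControl, and the log2 fold change was 0.11 (SE 0.142, 95% interval -0.20 to 0.41, adjusted p = 0.582). H2AC11 was at 1.82, 1.86 and 1.5 CPM against 1.64, 1.87 and 2.18, a log2 fold change of 0.12 (SE 0.219, adjusted p = 0.690). H2AC18 was at 1.32, 0.918 and 1.08 CPM against 1.31, 1.41 and 1.64, a log2 fold change of 0.39 (SE 0.252, adjusted p = 0.227). Its listed exons overlap a gene without a symbol on the opposite strand. H2AC18 and H2AC19 have the same coding bases, and H2AC19 was given reads in Set 3 of siNONO alone, 22.7 estimated counts. As a sum the pair was at 1.10 ± 0.201 CPM in siControl and 1.73 ± 0.633 CPM in siNONO (SD, n = 3).

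The linker histone gene H1-2 (chr6:26055968-26056698) was the single H1 member tested. It was at 7.83, 6.13 and 7.84 CPM in siControl and at 6.78, 7.01 and 8.26 CPM in siNONO. The groups overlapped, with a log2 fold change of 0.01 (SE 0.105, 95% interval -0.22 to 0.24, adjusted p = 0.931). H1-4 had 34 estimated counts in all, 17 in each group.

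Of the H3 genes, H3C6 was at 8.07, 6.65 and 6.93 CPM in siControl and at 7.45, 6.97 and 5.79 CPM in siNONO, a log2 fold change of -0.10 (SE 0.103, 95% interval -0.32 to 0.13, adjusted p = 0.474). H3C10 was at 1.18, 0.694 and 1.00 CPM against 0.909, 0.863 and 1.32, a log2 fold change of 0.09 (SE 0.292, adjusted p = 0.824). The groups overlapped for both genes. H3C14 and H3C15 have the same coding bases and were given equal reads, and their sum was 22, 26 and 9 estimated counts in siControl against 17, 13.7 and 21 in siNONO.

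Of the H4 genes 3 were tested, and none passed. H4C14 and H4C15 on chromosome 1 have the same coding bases. H4C14 was at 1.76, 2.11 and 3.08 CPM in siControl and at 3.39, 2.70 and 1.36 CPM in siNONO, while H4C15 was at 1.58, 0.807 and 0.796 CPM against 0.456, 0 and 2.79. Within siNONO, H4C14 was lowest in the library where H4C15 was highest. Their sum was far steadier, at 110, 80 and 85 estimated counts in siControl and 110, 75 and 116 in siNONO, with a mean log2 ratio over the Sets of 0.06 ± 0.163 (SD, n = 3). Fitted apart, H4C14 had a log2 fold change of 0.10 (SE 0.311, adjusted p = 0.824) and H4C15 of -0.53 (SE 0.711, adjusted p = 0.578). Without a library of Set 3, of either group, H4C14 passed the test as higher (0.66 in both cases) and H4C15 as lower (-2.47 and -2.51). These are not separate checks, as with the Set as a block both fits compare Sets 1 and 2. H4C12, which has the coding bases of H4C11, was at 0.546, 0.511 and 0 CPM against 0.28, 0.467 and 0.598 (log2 fold change 0.33, SE 0.649, adjusted p = 0.709).

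**Figure D3:**
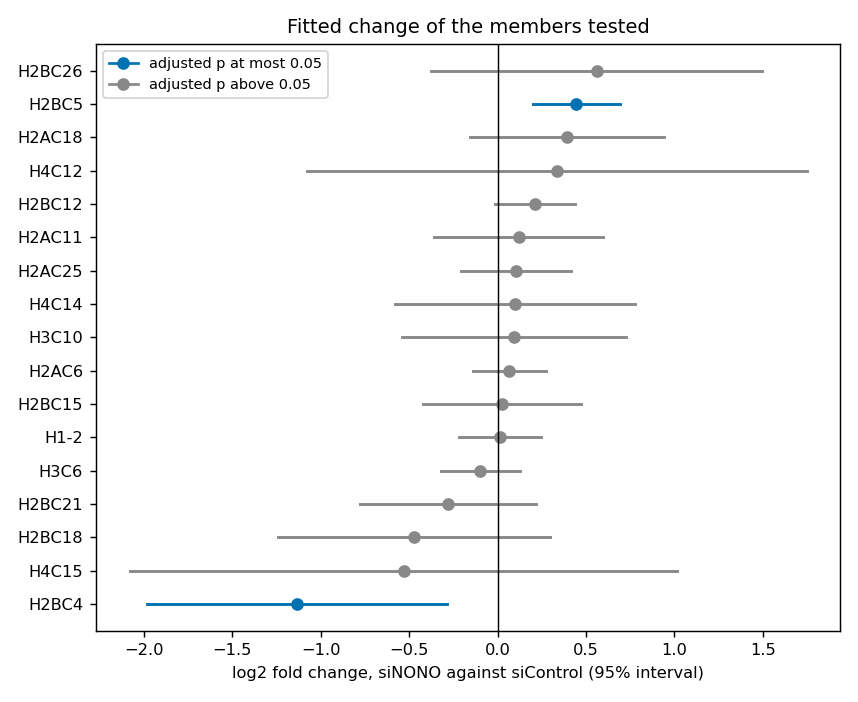
Log2 fold change of siNONO against siControl with its 95% interval for the 17 members tested, blue where the adjusted p is at most 0.05. H2BC5 (0.45) and H2BC4 (-1.13) are the blue points, and the widest intervals belong to the H4 copies H4C15 and H4C12.

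For the 15 members that did not pass, the intervals say how large a change these libraries could have missed. In 11 of them the 95% interval lay within 1 of 0 on the log2 scale, and in 6 within 0.5. The narrowest interval reached 0.206 to either side of its estimate and the widest 1.55. The SEs of the members tested had a median of 0.228, against 0.0651 over all genes tested.

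Sums over the members of each class were compared within the Sets. The log2 ratio of summed CPM within each Set averaged 0.16 ± 0.131 for H2B, 0.13 ± 0.0497 for H2A, 0.02 ± 0.201 for H1, -0.01 ± 0.133 for H4 and -0.07 ± 0.0646 for H3 (SD, n = 3 Sets). The H2A sum was 16.5, 15.3 and 15.6 CPM in siControl and 17.9, 16.3 and 17.7 CPM in siNONO, higher in siNONO in every Set. The H2B sum was 17.2, 16.5 and 18.1 CPM in siControl and 21.1, 18.6 and 18.4 CPM in siNONO, also higher in every Set, and it includes H2BC5. On average the H2B sum went from 17.27 to 19.37 CPM, and H2BC5 alone from 5.535 to 7.506 CPM, which is most of that rise. The H2B sum without H2BC5 was not fitted. In summed TPM, H2A was at 24.8, 23.7 and 23.3 in siControl and 24.7, 23.5 and 28.2 in siNONO. On that scale H2A was higher in Set 3 alone, and H2B was higher in every Set. Fitted with edgeR as 1 row per class, the log2 fold change was 0.17 for H2B (SE 0.0669, 95% interval 0.02 to 0.32) and 0.13 for H2A (SE 0.0630, 95% interval -0.01 to 0.27). The intervals of the other classes held 0. The H1 and H4 sums went up in some Sets and down in others. All 66 members together had a log2 ratio of 0.08 ± 0.00833, from 1213 to 1872 estimated counts per library. No interval was fitted to this sum, so its small SD over 3 Sets does not say how certain the ratio is.

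**Figure D4:**
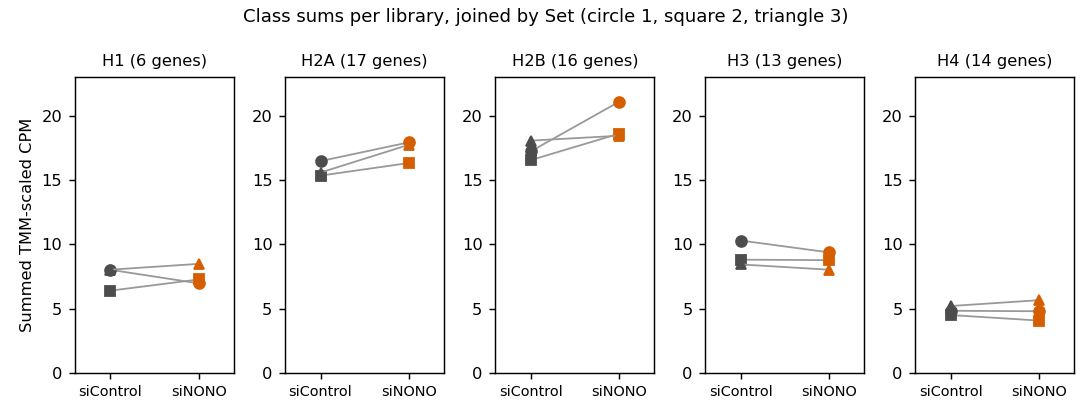
Summed TMM-scaled CPM of the members of each class (vertical axes from 0), per library, with lines that join siControl and siNONO of the same Set. H2A and H2B lines go up in all 3 Sets, H3 lines go down, and H1 and H4 lines go both ways.

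The length RSEM gave a gene is a mean over its transcripts weighted by their levels, so a switch between a short and a long form would move it. For the 13 members with more than 1 listed transcript, the groups overlapped in this length in every case. H2BC18 was at 1954 bases in every siControl library and at 1109, 1954 and 1639 in siNONO, so its groups met only in a tie. Some of the 13 had very few reads, such as H3C12 with 14 estimated counts over the libraries. Overlap says little for those. H2AC6 had a mean length of 1629 bases in siControl and 1630 in siNONO, H2BC5 of 770 and 777, and H2BC4 of 623 and 629. H2BC15 went from 2212 ± 530 to 1553 ± 572 bases (SD, n = 3), within its spread.

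Replication-independent histone genes, whose mRNAs are polyadenylated, fell more often than not: 6 of 11 fell, 2 rose and 3 did not pass, with a median log2 fold change of -0.28. That is 72.7% called, against 46.6% of all genes tested and 62% of those whose log2 CPM averaged 3 or more. H2AX, the H2A variant phosphorylated at DNA breaks, fell by 1.20 (SE 0.0374, adjusted p = 1.56e-10). Its mRNA can end in a stem-loop or a poly(A) tail. It was at 145, 151 and 168 CPM in siControl and at 61.3, 69.2 and 70.4 CPM in siNONO, far apart. CENPA, the H3 variant of centromeres, fell by 0.91 (SE 0.0683, adjusted p = 3.25e-07), and H2AZ2 and H2AZ1 fell by 0.60 and 0.37. H3-3A fell by 0.28 (adjusted p = 3.11e-05), while H3-3B, which encodes the same protein, was at -0.07 (adjusted p = 0.0633). MACROH2A1 and MACROH2A2, found in silent chromatin, rose by 0.49 and 0.24.

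Factors that process or degrade replication-dependent histone mRNA were called in 58.3% of cases, with 11 of 24 lower, 3 higher and a median of -0.09. That share lies between the 46.6% of all genes tested and the 62% of those whose log2 CPM averaged 3 or more. LSM11, a subunit particular to the U7 particle, fell by 0.58 (SE 0.0612), while its partner LSM10 was at -0.05 (adjusted p = 0.589). CASP8AP2, which brings the processing machinery to the genes, fell by 0.42, and SNRPD3, a shared Sm protein, by 0.35. SLBP was at 82.4, 83.8 and 82.9 CPM in siControl and at 74.8, 73.5 and 72 CPM in siNONO. It fell by 0.18 (SE 0.0363, adjusted p = 0.0015), with no overlap between groups. ERI1, an exonuclease that trims the stem-loop end, fell by 0.29, and ZNF473 by 0.25. LSM1, NCBP2 and NELFE rose by 0.32, 0.17 and 0.17.

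Of 12 factors that drive or time histone gene transcription, 6 fell and 2 rose, with a median of -0.09. The share called, 66.7%, is near the 62% of all genes whose log2 CPM averaged 3 or more. It was 46.6% over all genes tested. CCNE2, a cyclin of S phase entry, fell by 1.09, CDC25A by 0.86 and E2F1 by 0.39, while the related cyclin CCNE1 rose by 0.49 and YY1 by 0.11. NPAT, the coactivator that cyclin E and CDK2 phosphorylate at histone genes, fell by 0.20 (SE 0.0587, adjusted p = 0.0133). That call was lost without the siControl or the siNONO library of Set 3 (adjusted p = 0.0832 and 0.0696). Both fits rest on Sets 1 and 2, with less power. HINFP, which binds H4 promoters, was at -0.04 (adjusted p = 0.667).

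Among chaperones and importers, which carry histones to DNA, 17 of 23 fell, 3 rose and the median was -0.18. In all 87.0% were called, against 46.6% of all genes tested and 62% of those whose log2 CPM averaged 3 or more. UBN1 fell by 1.18, HJURP, the CENPA chaperone, by 0.93, and ASF1B by 0.79. NAP1L1 rose by 0.64, and ATRX and RBBP4 by 0.19 each. Of 11 poly(A) polymerases and nuclear exosome factors, which can act on histone RNA that is not processed at the stem-loop, 7 fell and 2 rose with a median of -0.16. That is 81.8% called, against the same 46.6% and 62%. TENT4A, ZC3H18 and EXOSC3 fell by 0.26, 0.24 and 0.21, and DIS3 and TENT4B rose by 0.43 and 0.17.

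S-phase genes moved together. Of 43 tested, 39 fell (90.7%), 0 rose by edgeR or DESeq2 (0 also at an unadjusted p under 0.05), and the median was -0.47. Over all genes tested 23.4% were called lower. Of those whose log2 CPM averaged 3 or more, 62% were called in either direction. CCNE2, EXO1 and CLSPN fell by 1.09, 0.99 and 0.93. The list shares CASP8AP2, SLBP, CCNE2, NASP and CHAF1B with the lists above. The part of S-phase genes in the histone values was not tested.

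**Figure D5:**
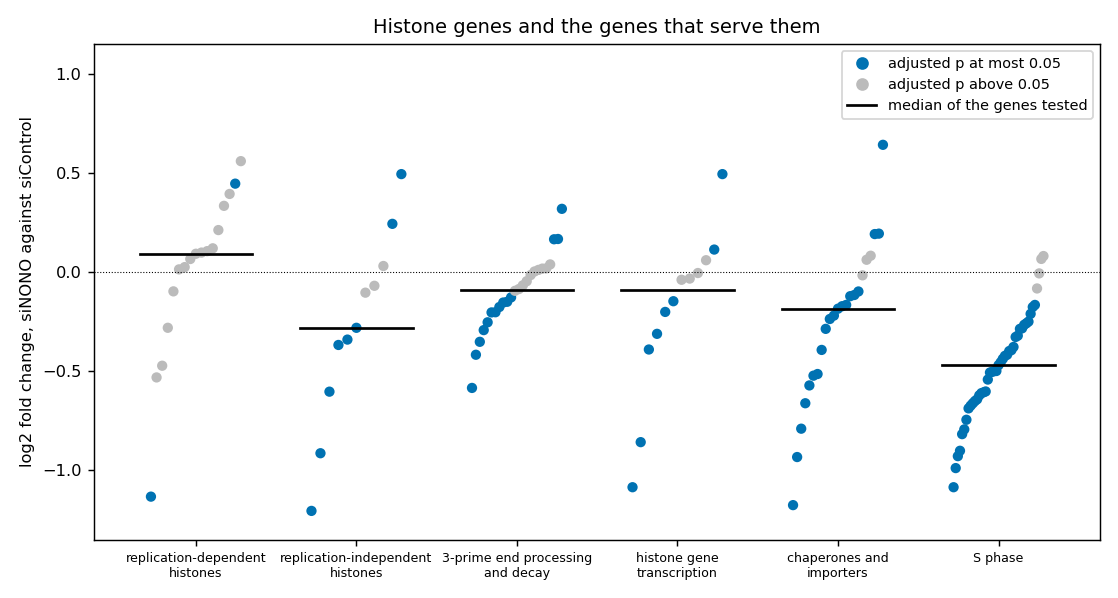
Log2 fold change of siNONO against siControl for each gene tested in 6 lists, blue where the adjusted p is at most 0.05, with a bar at the list's median. The replication-dependent histone genes have a median of 0.09 with 2 blue points, and the S-phase genes a median of -0.47 with 39.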

How the data were processed

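HCT116 RNA from 3 siControl and 3 siNONO libraries was analysed. According to the submitters' processing notes, the authors used bcl2fastq, STAR and RSEM 1.3.1 on GRCh37; gene models are GENCODE. The deposited files give RSEM expected counts, not normalized, and TPM, scaled by the authors for length and depth, per gene. The counts were rounded to whole numbers here. Depth and floors cover counting error only.

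Genes that passed edgeR's filterByExpr were fitted with edgeR 4.0.16 (R 4.3.3) by the quasi-likelihood F-test with TMM scaling and the Set as a block, and p-values were adjusted by Benjamini-Hochberg over all 17000 genes tested. The labels number the Sets, and deviations from the group means correlated within Sets 1, 2 and 3 at 0.428, 0.257 and 0.509 over 10814 genes. CPM values are TMM-scaled. Per-gene TPM was used to compare levels between genes. On simulated data of this design (16722 genes) the test recovered 71.4% of 98 genes changed by 0.5 on the log2 scale and 82.3% of 96 changed by 1. It made 11 false calls. No Set effect was simulated. The changed genes were drawn from all genes tested, whose median SE is smaller than the members', so these rates do not carry over to the members.

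Members were found by Ensembl gene ID (63), older name (2) or transcript ID (1). Gene models and sequences came from GENCODE v44lift37 and GRCh37, and promoter windows from RefSeq. The members and gene lists were chosen with earlier results of these data known. Named are, with all values, the 10 members with the highest mean CPM, the called members and the lowest and highest fold change of each class, and, for each other list, up to 3 called genes in each direction and fixed genes of histone mRNA metabolism, of which 1 is not reported here. Alternatives were DESeq2 1.42.0, limma 3.58.1 on log2(TPM + 1) or log2(TPM + 0.1), other scalings, other filters, no block and leaving out each library. The last kept the Set as a block, so the Set partner of the library left out did not bear on the fold change.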

Additional observations from a re-analysis of the deposited data

How the results depend on the processing

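The count of all genes called (7924) was 4889 with DESeq2 with the replicate block, and 5257 and 5250 with limma on log2(TPM + 1) and log2(TPM + 0.1). Without the replicate block it was 6164, with 1 member higher and 1 lower as in the report. With DESeq2 with the replicate block 0 members were higher and 0 lower (1, H2BC5, at an unadjusted p under 0.05), H2BC4 being at -1.15 with no adjusted p given, and 2 were higher with no filter on low counts, H2AC19 being added. With at least 10 counts in every library 0 were lower, H2BC4 not being tested. Leaving out each library gave 0 to 2 members higher and 0 to 1 lower, and a median from -0.045 to 0.12, below 0 without either library of Set 3. Such a fit compares the groups only within the Sets left whole, so leaving out either library of a Set is nearly the same check. Factors of histone gene transcription called were 5 of 12 with DESeq2, and poly(A) and exosome factors 5 of 11. The latter were 5 to 10 without each library. Tailless RNAs called were 2 with limma on either TPM scale, and 1 to 2 without each library. The summed ratios of the 5 classes moved by less than their SD under every alternative run, an edgeR fit with each class as 1 row among them. The sum of all 66 members, at 0.084 in the report, was at 0.069 with library size alone and at 0.060 with summed TPM. These alternatives for the sum of all members, the fit by class and the use of robust dispersions were chosen after seeing the data. The cause of these differences was not tested.

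Some values changed sign, none of them called in the report. H1-2 was at -0.0021 with library size alone and at -0.059 and -0.061 with limma on log2(TPM + 1) and log2(TPM + 0.1), H2AC6 at -0.030 and -0.034, and H4C15 at 0.0046 with no replicate block. Leaving out each library moved H1-2 over -0.067 to 0.14, H2AC6 over -0.031 to 0.13, H2AC11 over -0.071 to 0.26, H3C10 over -0.067 to 0.36, H4C12 over -0.52 to 1.12, H4C14 over -0.37 to 0.66, H4C15 over -2.51 to 0.23, LSM10 over -0.13 to 0.019 and HINFP over -0.097 to 0.057. H3-3B passed as lower on both TPM scales, with library size alone and without either library of Set 3, NPAT was also lost with no replicate block, with DESeq2 and on both TPM scales, ZNF473 with DESeq2 and MACROH2A2 on both TPM scales. Over the genes and members tested here, alternatives planned kept direction and call in 430 cases, lost the call in 18, gained it in 9 and changed sign in 30. For lack of reads 49 of 66 members were not tested.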

Other observations

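Of the rows with a histone pseudogene name, 3 had over 1000 estimated counts over the libraries, while H3P16 and H2BW3P had 14.9 and 10.1. H3P6 was at 37.0, 38.6 and 36.8 CPM in siControl and at 31.9, 33.9 and 36.8 CPM in siNONO, a log2 fold change of -0.14 (SE 0.0543, adjusted p = 0.0550). H2BC19P was at 7.62, 7.63 and 7.50 CPM against 8.62, 7.10 and 7.30 (log2 fold change 0.02, adjusted p = 0.896). HIST2H2BC was at 10.4, 10.9 and 9.23 CPM against 9.77, 10.1 and 9.22 (log2 fold change -0.07, adjusted p = 0.508). The telomerase RNA TERC, which has no long poly(A) tail when mature, had 4, 3 and 2 estimated counts in siControl and 18, 2 and 12 in siNONO, too few to be tested. These rows were chosen after their values were seen.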
